A study of Oryza sativa with 6 samples.

Results

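Transcript levels were followed along 3 root types, nodal roots, L-type laterals and S-type laterals, in Mulai, a rice (Oryza sativa) cultivar labelled salinity tolerant. A locus was included when its scaled count, the fragment count multiplied by 1 factor per library, reached 10 in at least 1 of the 3 Mulai libraries, which gave 20371 of the 38042 loci in the table (53.5%). Nodal roots emerge from the nodes of the stem and carry the laterals. Of the laterals, the S-type stays short and fine and forms no branches of its own, whereas the L-type grows long and branches. L-type roots thus share their lateral origin with S-type roots and their branching with nodal roots.

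The 3 Mulai libraries were C-N1 (nodal roots), C-L1 (L-type lateral roots) and C-S1 (S-type lateral roots), 1 library for each root type. The same root types of the cultivar IR29, labelled salinity sensitive, gave 3 further libraries, which were used only to look up the loci sorted in Mulai. All plants grew under the same stated regime of temperature and humidity. No salt treatment, plant age, or pooling of plants is named, so that salinity tolerance is here a label of the cultivar. With 1 library per root type, the comparisons within Mulai have no replicate check and carry no test, and each describes these libraries.

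The loci carry only assembly identifiers. None of the 38042 matched the reference gene table, so that no gene name, role, position or sequence is given, and the labelled root types could not be checked against marker genes. Whole reads recovered from the scaled counts numbered 7904454 in the nodal, 5631504 in the L-type and 6246649 in the S-type library. A scaled count of 10 stood for 16.6, 11.7 and 11.2 reads in the same order, and a count of 0 reads allowed a value of up to 1.80, 2.57 and 2.67 (3 reads, counting error only). The included loci held between 99.70% and 99.80% of the reads of each library. A value of at least 10 was reached in all 3 libraries by 16564 of them (81.3%). The highest value was 10.2 for the included locus nearest the limit and 9.79 for the excluded locus nearest to it. The deposited table gives a modelled variance for each value. No root type of a cultivar had a replicate library, so this variance is not an error measured between replicates. Whether it includes differences between root types or cultivars was not tested. The square root of the variance, as a share of the value, was taken at the median locus among those that reached 50. It was 54.3% in the nodal, 54.1% in the L-type and 53.9% in the S-type library. In IR29 it was 54.1%, 53.8% and 53.9% in the same order.

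The L-type library lay between the other libraries for most loci. It held the middle of the 3 values in 11870 loci (58.3%), of which 5874 were lowest in nodal and highest in S-type roots and 5996 were the reverse. The nodal library was in the middle for 4786 loci (23.5%), the S-type library for 3664 (18.0%), and 51 loci had a tie. Among the 11571 loci that reached 100 in 1 library, the L-type share of the middle place was 62.6%. For all included loci in IR29, the L-type library was in the middle in 7845 of 20371 (38.5%), with 1151 ties. For the 11571 loci the IR29 share was 43.5%, with 225 ties. The loci were included by their Mulai values, and 18645 of the 20371 also reached 10 in an IR29 library. The difference between the cultivars rests on 1 library per root type and was not tested.

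Folds were differences of log2(scaled count + 1), and a pair of libraries was called different for a locus at 2-fold or more. This scale understates the change of loci with few reads. Since every included locus was compared, the counts that follow are themselves the background for each pair. Over all included loci L-type and nodal roots were the closest pair, with 2438 loci at least 2-fold higher (12%) and 2106 lower (10.3%) in L-type roots, together 22.3%. Between the lateral types, 2420 loci stood at least 2-fold higher (11.9%) and 3415 lower (16.8%) in the S-type, together 28.6%. S-type and nodal roots were farthest apart, with 4164 loci higher (20.4%) and 4764 lower (23.4%) in S-type roots, together 43.8%. In loci with a mean of at least 1000 the lateral types were the closest pair instead. There, 26.5% were called between L-type and nodal roots and 17.7% between the lateral types. Between 300 and 1000 the shares were 17.1% and 16%. S-type and nodal roots stayed farthest apart, with 50.6% called at a mean of at least 1000 and 36.3% between 300 and 1000. The median absolute log2 fold was 0.46 for L-type over nodal, 0.58 for S-type over L-type and 0.85 for S-type over nodal. In bulk roots, fewer cells of a type and less transcript per cell cannot be told apart behind any of these folds.

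Large changes were mostly those between S-type and nodal roots. At least 16-fold higher in S-type than in nodal roots were 271 loci, and 421 were at least 16-fold lower. For L-type over nodal roots the 16-fold counts were 63 and 71, and for S-type over L-type roots 34 and 59. At 64-fold they were 35 and 59 between S-type and nodal roots, against 4 and 6 between L-type and nodal roots. Of the 8928 loci called between S-type and nodal roots, 5203 (58.3%) differed by at least 1 modelled SD of the difference, taken from the deposited variances. The share was 43.3% of the 4544 loci called between L-type and nodal roots and 39.4% of the 5835 called between both lateral types. Most calls of these pairs thus lay within 1 modelled SD, which is not an error measured between replicates.

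The balance of higher and lower calls depended on how the libraries were scaled. In the deposited scaling the values of the S-type library summed to 1.17 times those of the nodal library, against 1.014 times for the L-type library. Scaling by the total reads of each library instead moved the median log2 fold over all loci to -0.23 for S-type over nodal and -0.18 for S-type over L-type, from 0.00 and 0.03. Under it, 28.9% of the loci called between S-type and L-type roots were higher in S-type roots, against 41.5% in the deposited scaling. For S-type over nodal roots the shares were 36.7% and 46.6%. TMM scaling, which assumes that most loci are unchanged, left these shares at 38.9% and 45.6%.

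The 3 pairs together sorted each locus into 1 pattern. In 9944 loci no pair reached 2-fold, and these even loci made up 48.8% of all. A graded pattern, in which L-type roots lay between the others, was found in 1765 rising loci (8.66%) and 1806 falling loci (8.87%). Graded loci were steep where each step reached 2-fold, 685 rising and 753 falling, and gradual where only the whole span did, 1080 rising and 1053 falling. S-type roots stood apart, at least 2-fold from both others with under 2-fold between those, in 1199 loci where they were high (5.89%) and 1911 where they were low (9.38%). Nodal roots stood apart by the same criterion in 950 loci where they were high (4.66%) and 1104 where they were low (5.42%). L-type roots were highest, 2-fold above both others, in 426 loci (2.09%) and lowest in 221 (1.08%). In the remaining 1045 loci (5.13%) a lone pair that included the L-type library differed.

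**Figure D1:**
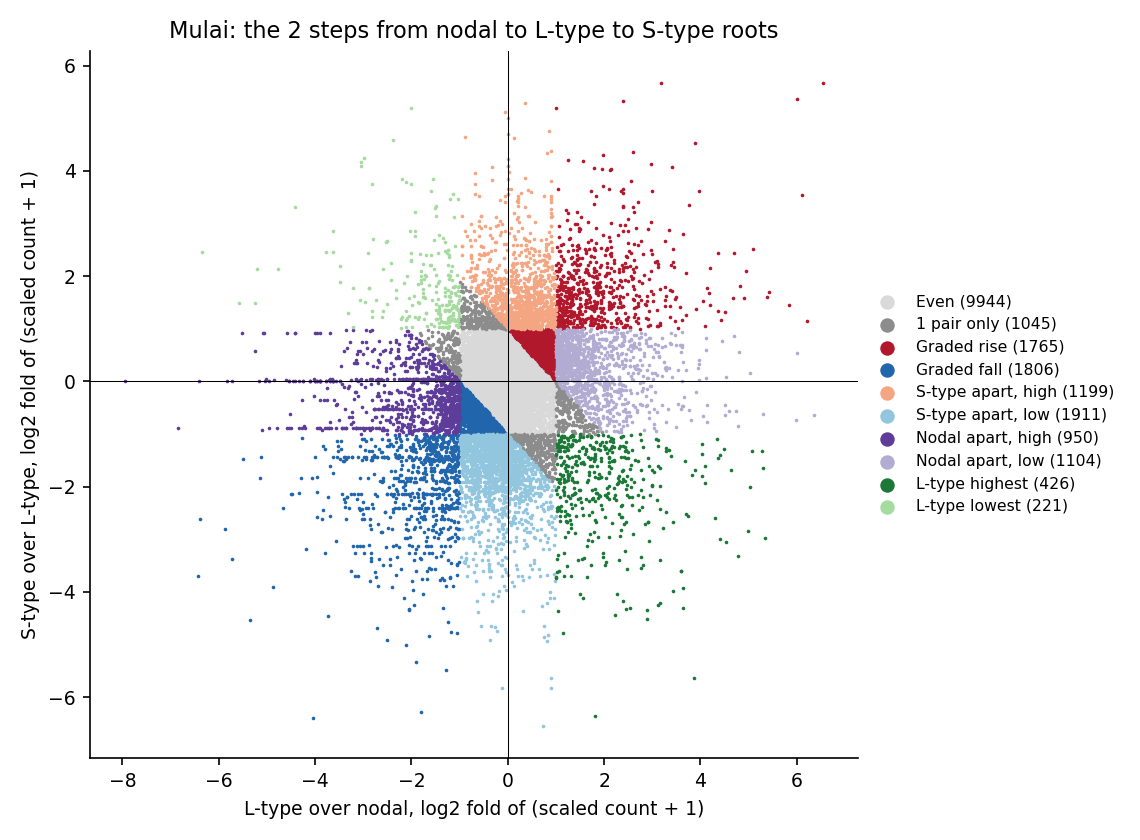
Each point is 1 of the 20371 loci in Mulai, placed by its log2 fold of L-type over nodal roots (x axis) and of S-type over L-type roots (y axis) and coloured by pattern, with the number of loci in brackets. The upper right and lower left, where both steps go the same way, hold 685 and 753 steep graded loci, and the lower right holds the 426 loci highest in L-type roots, the upper left the 221 lowest there.

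The boundaries between patterns cut through dense regions. Between log2 folds of 0.9 and 1 lay 854 loci for S-type over nodal roots and between 1 and 1.1 lay 767. For L-type over nodal roots the counts were 680 and 553, and for S-type over L-type roots 760 and 696. A locus near a boundary is therefore sorted by a small difference. When the fold was taken after thinning all libraries to equal reads, 87.5% of the 3571 graded loci and 92.8% of the 3110 loci with S-type roots apart were sorted as before. These shares were 94.1% and 97.1% with TMM and 71.1% and 86.7% with scaling by total reads. With 1 modelled SD required in each called pair they were 30.5% and 37.6%.

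The steep rising loci went from a median scaled count of 15.6 in nodal roots to 60.7 in L-type and 217 in S-type roots. Their median log2 fold was 1.72 at the step from nodal to L-type and 1.63 at the step from L-type to S-type roots. XLOC_008562 had the largest smaller step among the 439 steep rising loci that reached 100 in 1 library. Its scaled count was 4.81 in nodal, 540 in L-type and 27600 in S-type roots, from 8, 631 and 31012 reads. L-type roots were thus 112-fold above nodal roots (95% counting interval 56.6 to 261), and S-type roots 51.2-fold above L-type roots (47.3 to 55.4). The interval of each fold covers the counting of reads only. In IR29 the same locus read 3.46, 126 and 1860, again a steep graded rise.

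The steep falling loci went from a median of 63.1 in nodal roots to 15.4 in L-type and 2.67 in S-type roots, with median log2 folds of -1.68 and -1.83 at the steps. Of these 753 loci, 171 had 0 reads in at least 1 of the 3 libraries, against 55 of the 685 steep rising loci. XLOC_002289, first by the same measure among 281 such loci, had scaled counts of 947 in nodal, 22.2 in L-type and 0 in S-type roots. Nodal roots were 42.6-fold above L-type roots (29.0 to 65.4). With the floor of 3 reads in place of 0 in the S-type library, L-type roots were 8.33-fold higher than S-type roots. The lower end of the counting interval of that fold was 6.30. IR29 gave 1373, 14.1 and 0 for this locus, the same order with 0 reads in the same root type.

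Graded loci together took 5.34% of the reads in nodal roots when rising and 15.87% when falling. The shares in L-type roots were 10.06% and 8.96%, while S-type roots gave 19.66% and 4.65%. The numbers of rising and falling graded loci were close in the deposited scaling (1765 and 1806; 1334 and 2193 when scaled by total reads), while the share of the rising loci in the S-type library was larger than that of the falling loci in the nodal library. The exact 95% binomial intervals of the 2 larger shares were 19.63 to 19.69 and 15.85 to 15.90, for counting error only. With the lists from TMM scaling these shares were 19.13% and 15.87%. The reads come from the values that also sort the loci. The direction in which the shares change, here and in the other patterns below, thus follows from the sorting. The even loci took 54.55% of the reads in nodal, 51.53% in L-type and 47.49% in S-type roots.

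**Figure D2:**
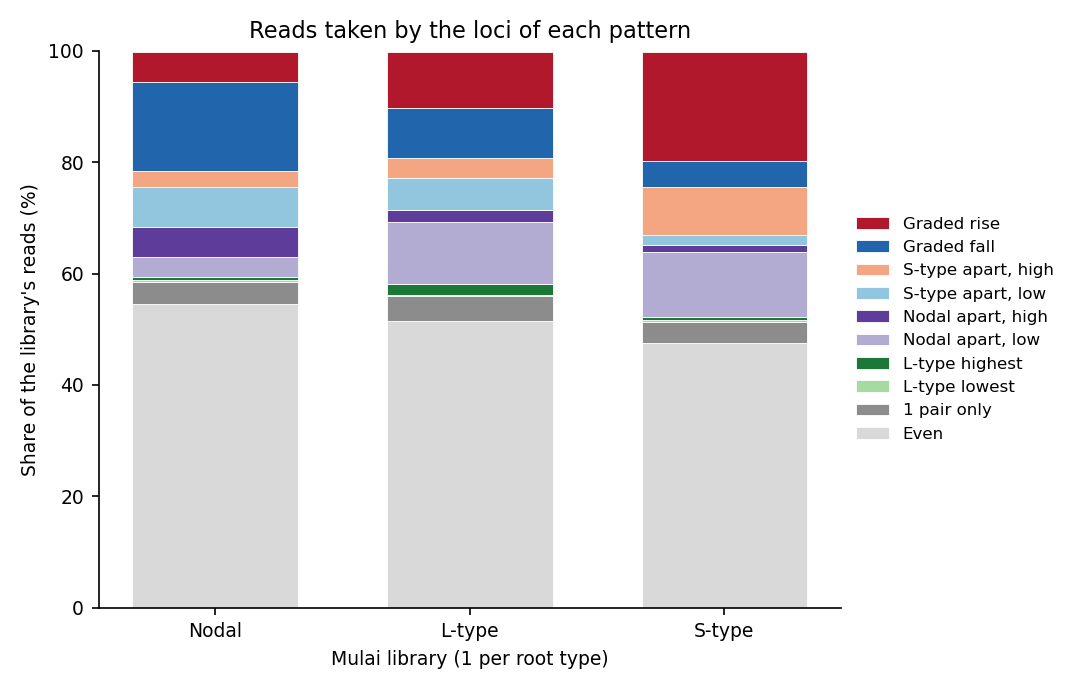
Stacked bars give the share of each Mulai library's reads (y axis, in percent) taken by the loci of each pattern. The share of the graded rise grows from 5.34% in nodal to 19.66% in S-type roots, and that of the graded fall shrinks from 15.87% to 4.65%. The loci were sorted by the values of these same libraries, which sets the direction of these changes.

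Loci with S-type roots apart mark the step from L-type to S-type laterals. The 1911 low loci went from medians of 65.5 in nodal and 57.3 in L-type roots to 16.9 in S-type roots, and the 1199 high loci went from 36.7 and 42.8 to 129. With scaling by total reads the low and high loci numbered 2462 and 802. In reads, the low loci took 7.06% of the nodal, 5.80% of the L-type and 1.72% of the S-type library. The high loci took 3.0%, 3.59% and 8.56% in that order. XLOC_018055 was first among 676 high loci that reached 100 in 1 library. It read 1.80 in nodal and 2.57 in L-type roots, from 3 reads each, and 137 in S-type roots, from 154 reads. S-type roots were 53.4-fold above L-type roots (17.9 to 262) and 76.0-fold above nodal roots (25.5 to 373). In IR29 it read 0, 35.1 and 265, a steep graded rise. L-type roots there were 10.2-fold above nodal roots with the floor of 3 reads in place of 0, with 7.76 as the lower end of the counting interval.

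Loci with nodal roots apart mark the difference of main roots from both lateral types. The 1104 low loci went from a median of 48.1 in nodal to 168 in L-type and 200 in S-type roots, and took 3.62% of the nodal but 11.05% of the L-type and 11.61% of the S-type reads. The 950 high loci went from 51.7 to 12.8 and 11.6, and from 5.42% of the reads to 2.1% and 1.39%. XLOC_032584, first among 330 high loci, had a scaled count of 244 in nodal roots, from 406 reads, and 0 reads in both lateral libraries. It was 95.1-fold higher in nodal than in L-type and 91.4-fold higher than in S-type roots, with 3 reads in place of 0 in the lateral library. The lower ends of the counting intervals were 77.0 and 74.0. IR29 gave 332 in nodal roots and 0 reads in both lateral types.

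Presence in 1 root type alone was rare. With a value of at least 10 in 1 library and 0 reads in both others, 40 loci were read in nodal roots only, 9 in S-type roots only and 2 in L-type roots only. Of the 40 nodal loci, 28 also had 0 reads in both lateral libraries of IR29, against only 4.85% of all included loci. Of the 28 or the other nodal loci, 6 had 0 reads in all 3 IR29 libraries. In IR29 nodal roots 17 of the 40 reached 10, a smaller share than the 85.2% of all included loci. Of the 40, 4 reached 50 and XLOC_032584 alone reached 100. The part of their low counts in these shares was not tested. Conversely, 44 loci had a value of at least 10 in nodal and L-type roots and 0 reads in S-type roots, 12 loci lacked reads in nodal roots alone, and 0 lacked reads in L-type roots alone. The nodal library was the deepest, and the part of depth in these counts was not tested.

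Loci with an extreme in L-type roots were few and had modest read support. The 426 L-type highest loci had medians of 11.7 in nodal, 53.0 in L-type and 12.5 in S-type roots, and took 2.11% of the L-type reads against 0.58% and 0.61%. The 221 L-type lowest loci had medians of 21.6, 6.84 and 24.0, and 45 of them reached 100 in any library. Requiring a difference of at least 1 modelled SD in each called pair left 131 highest and 26 lowest loci.

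XLOC_014613 led the L-type highest loci, with 15.0 in nodal, 507 in L-type and 69.4 in S-type roots. L-type roots were 33.7-fold above nodal (22.6 to 52.6) and 7.30-fold above S-type roots (5.76 to 9.37). In IR29 its L-type value of 59.7 was 1.28-fold the S-type value of 46.6 (0.804 to 2.07), an interval that includes no difference. XLOC_008635 followed, with 48.1, 457 and 65.9 in Mulai, where L-type roots were 6.95-fold above S-type roots (5.44 to 8.98). In IR29 it read 17.3, 43.3 and 341, and S-type roots were 7.88-fold above L-type roots (5.55 to 11.5), the opposite order.

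XLOC_006603 led the L-type lowest loci, with 355 in nodal, 46.2 in L-type and 255 in S-type roots. Nodal roots were 7.68-fold above L-type roots (5.81 to 10.3) and S-type roots 5.53-fold above them (4.12 to 7.54). IR29 gave 468, 17.6 and 3.01, a steep graded fall. XLOC_002288 was next, with 237, 64.1 and 233, nodal and S-type roots differing by 1.02-fold (0.867 to 1.19). It kept its minimum in IR29, where the values were 225, 4.68 and 113. Its identifier number is next to that of XLOC_002289, the steep falling locus.

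**Figure D3:**
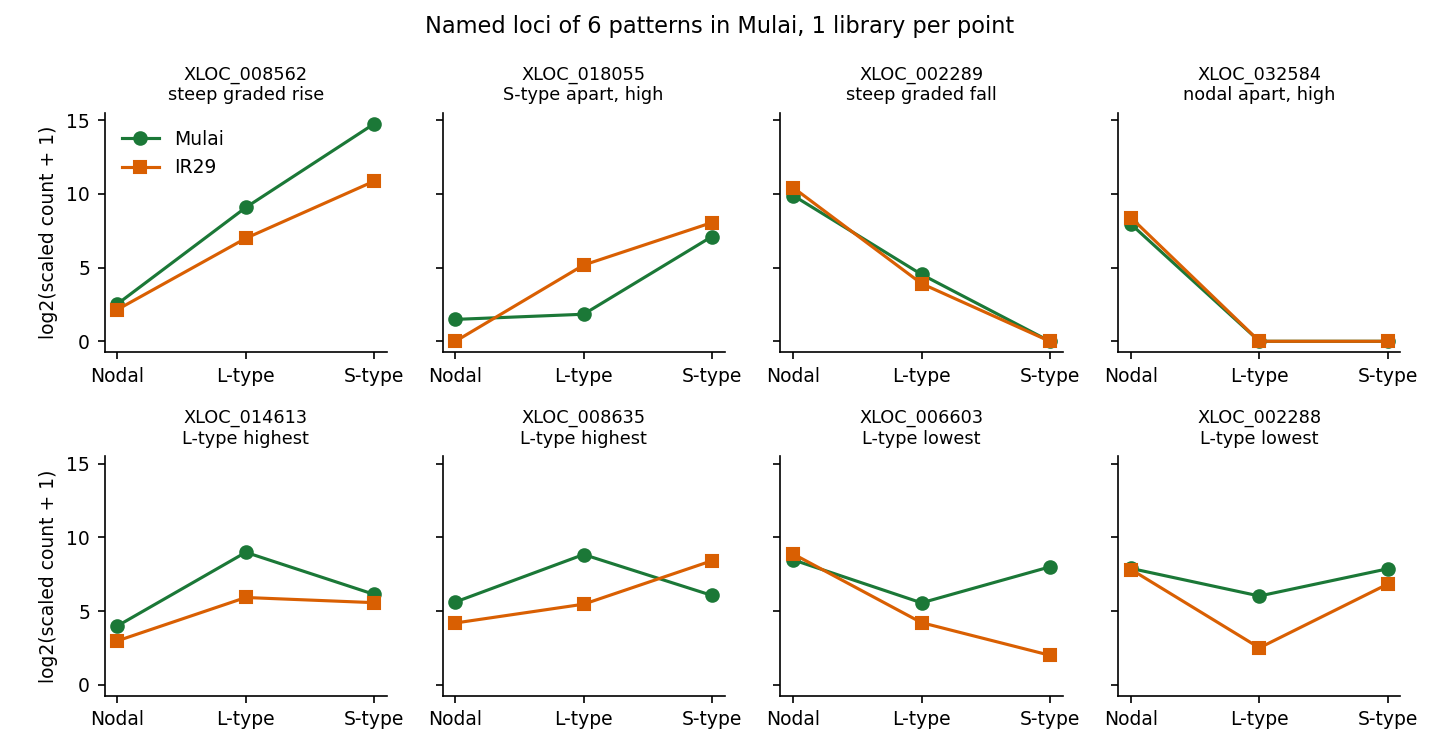
Scaled counts on the log2(scaled count + 1) scale (y axis) are shown by root type (x axis) for the 8 named loci, which lead 6 of the Mulai patterns, 1 library per point. The order of the root types is the same in both cultivars except in XLOC_008635, whose S-type value is 65.9 in Mulai and 341 in IR29, and in XLOC_006603, with 255 and 3.01.

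Higher and lower loci of S-type against nodal roots were spread differently over the steps. For the 4164 loci at least 2-fold higher in S-type than in nodal roots, the L-type value lay nearer to nodal in 51.7% (exact binomial interval 50.1 to 53.2), with median log2 folds of 0.89 at the first step and 0.92 at the second. For the 4764 lower loci it lay nearer to nodal in 62.4% (61.0 to 63.8), with medians of -0.72 and -1.17. These intervals count loci as independent, which they are not, and choosing loci by their extremes leaves L-type values little room outside. Over all included loci the L-type value lay nearer to nodal in 56.2% (55.5 to 56.8), between the shares of these lists. Chosen instead by their fold in IR29, whose libraries are separate, 4713 higher loci had the Mulai L-type value nearer to nodal in 46.7% and 4809 lower loci in 54.3%, both under the share of all included loci. For loci chosen in Mulai, the lower ones kept the larger share in each scaling, at 64.0% against 49.5% with TMM and 66.4% against 43.9% when scaled by total reads.

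The directions also differed by read support, taken as the mean of the same 3 Mulai values that give the folds. In the 4306 loci whose scaled count averaged 300 or more over the 3 libraries, L-type roots were at least 2-fold above nodal roots in 647 and below in 170. Among 3556 loci with a mean of 10 to 30 the balance was turned around, with 484 above and 650 below. The excess of higher over lower calls in well-read loci was also present with TMM (664 and 162) and with scaling by total reads (627 and 189). For S-type over nodal roots the counts were 1059 higher and 630 lower at a mean of at least 300, and 704 and 1197 at a mean of 10 to 30. With scaling by total reads, the excess of higher calls in the well-read loci was lost, with 837 higher and 862 lower. S-type over L-type roots had 405 higher and 298 lower well-read loci, and with scaling by total reads 266 and 472, the reverse.

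**Figure D4:**
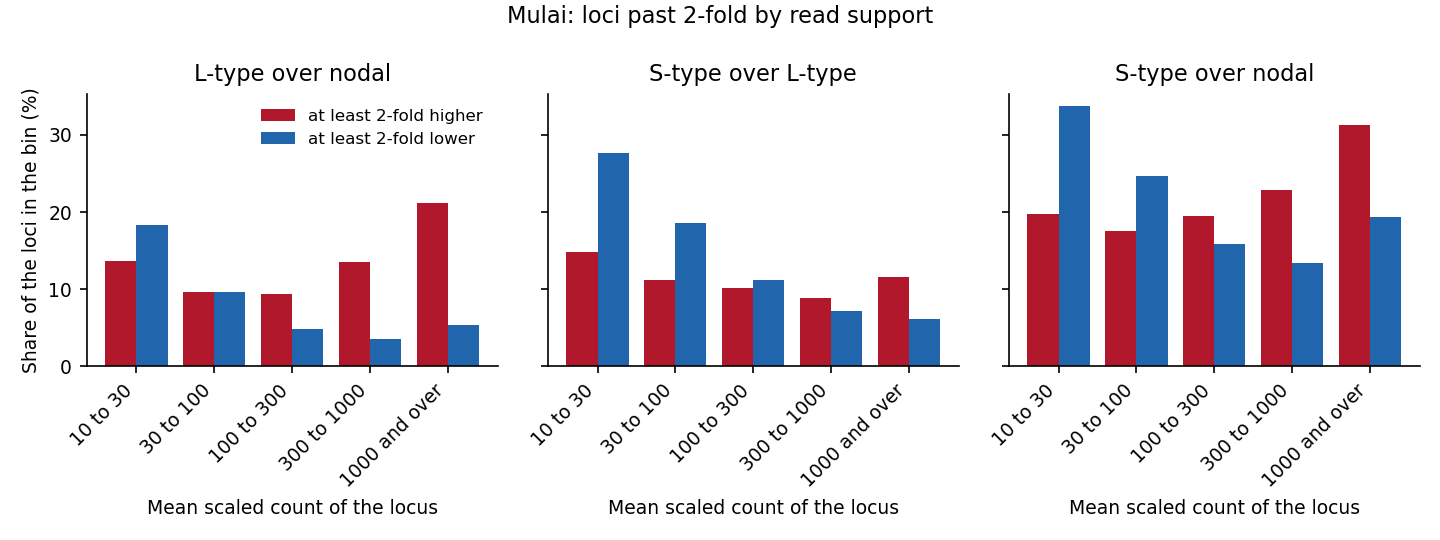
Bars give the share of loci (y axis, in percent of the loci in each bin) at least 2-fold higher or lower, by the mean scaled count of the locus over the 3 Mulai libraries (x axis), for each pair of root types in the deposited scaling. In L-type over nodal roots lower calls prevail at 10 to 30 and higher calls at 300 and over, where 647 loci are higher and 170 lower.

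The patterns differed in read support in the same way. The mean comes from the values that also sort the loci, so that patterns with more high libraries have higher means by construction. The part of this in the shares below was not tested. Nodal roots were apart and high in 7% of the 3556 loci with a mean of 10 to 30 and in 3.33% of the 871 loci with a mean of at least 1000, while nodal roots were apart and low in 5.6% and 13.2% of these loci. S-type roots were apart and low in 14.4% and 2.76%. In the deposited scaling, S-type apart low and high loci numbered 512 and 222 at a mean of 10 to 30 but 180 and 195 at 300 and over, where TMM gave 205 and 170. Even loci made up 34.1% of the loci with a mean of 10 to 30, 59.9% of those between 300 and 1000, and 43.5% at 1000 and over. The 1382 loci with a mean under 10 were left out of this comparison, since they were included only through a library in which they reached 10. That inclusion favours uneven loci, and 12.4% of them were even. A mean scaled count also grows with transcript length, which was not used here.

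The most abundant loci turned over along the same order. The 100 loci with the highest scaled counts in nodal roots shared 50 with those of L-type roots and 34 with those of S-type roots, and the lateral types shared 62. All 3 lists held 32 loci in common. Of the 100 leading loci in S-type roots, 35 belonged to the graded rise, 15 to S-type apart high, 17 to nodal apart low and 22 to the even loci. Of the leading 100 in nodal roots, 31 belonged to the graded fall, 15 to nodal apart high and 32 to the even loci. In L-type roots 31 were even, 23 were nodal apart low and 3 were L-type highest. These lists were drawn from the values that also sort the loci, and the counts are a description.

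The same loci were then looked up in IR29, whose libraries had no part in the sorting. A value of at least 10 was reached in IR29 by 18645 of the 20371 loci, and 754 had 0 reads in all 3 IR29 libraries, where they count as even. Of the 1765 graded rising loci, 1251 were at least 2-fold higher in S-type than in nodal roots of IR29 and 22 lower, where 23.1% of all included loci were higher. Of the 1806 graded falling loci, 1356 were at least 2-fold lower there and 42 higher, where 23.6% of all were lower. The median IR29 log2 fold of S-type over nodal roots was 1.63 for the rising and -1.69 for the falling loci, beside 1.5 and -1.53 in Mulai and 0.00 in IR29 over all included loci. The direction from nodal to S-type roots was thus the same in IR29 for most graded loci.

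The whole pattern, including the place of the L-type library, was compared next. The graded rise was found again in IR29 in 407 of the 1765 loci (23.1%), where 6.66% of all included loci had it. The graded fall was found again in 414 of 1806 (22.9%, against 5.91%). Steep loci recurred as steep in 35.2% when rising (against 3.94%) and 30.9% when falling (against 2.65%). Gradual loci recurred as gradual in 11.8% (against 2.72%) and 13.9% (against 3.26%). Among falling loci, 242 of 753 steep and 276 of 1053 gradual ones were nodal apart high in IR29. Among rising loci, 203 of 685 steep and 195 of 1080 gradual ones were S-type apart high there, and 92 and 248 nodal apart low. Nodal apart high was found again in 362 of 950 loci (38.1%, against 8.25%) and nodal apart low in 270 of 1104 (24.5%, against 6.38%). S-type apart low recurred in 494 of 1911 (25.9%, against 6.73%) and S-type apart high in 243 of 1199 (20.3%, against 7.3%). L-type highest recurred in 52 of 426 (12.2%, against 3.74%), and another 52 of these loci were L-type lowest in IR29. L-type lowest recurred in 59 of 221 (26.7%), but 9.84% of all included loci were L-type lowest in IR29. As shares of the IR29 lists, the 52 highest were 6.83% and the 59 lowest 2.94%. Over the loci that reached 10 in IR29 the graded rise recurred in 25.3% (against 7.15%), the graded fall in 24.9% (against 6.21%) and L-type highest in 13.5% (against 3.77%).

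Median folds of the patterns show where the cultivars parted. Steep falling loci had IR29 medians of -2.49 for L-type over nodal and -0.52 for S-type over L-type roots, so that most of the fall lay at the first step, whereas the Mulai medians were -1.68 and -1.83. Steep rising loci had IR29 medians of 1.05 and 2.04, beside 1.72 and 1.63 in Mulai. In both lists the L-type median thus lay nearer the low end of the range in IR29 than in Mulai. The L-type highest loci had an IR29 median of 0.55 for S-type over L-type roots, beside -1.80 in Mulai. The loci were chosen by their Mulai values, and the part of that choice in these differences was not tested. Each cultivar also refers to its own earlier set of records, so that cultivar and batch cannot be told apart.

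**Figure D5:**
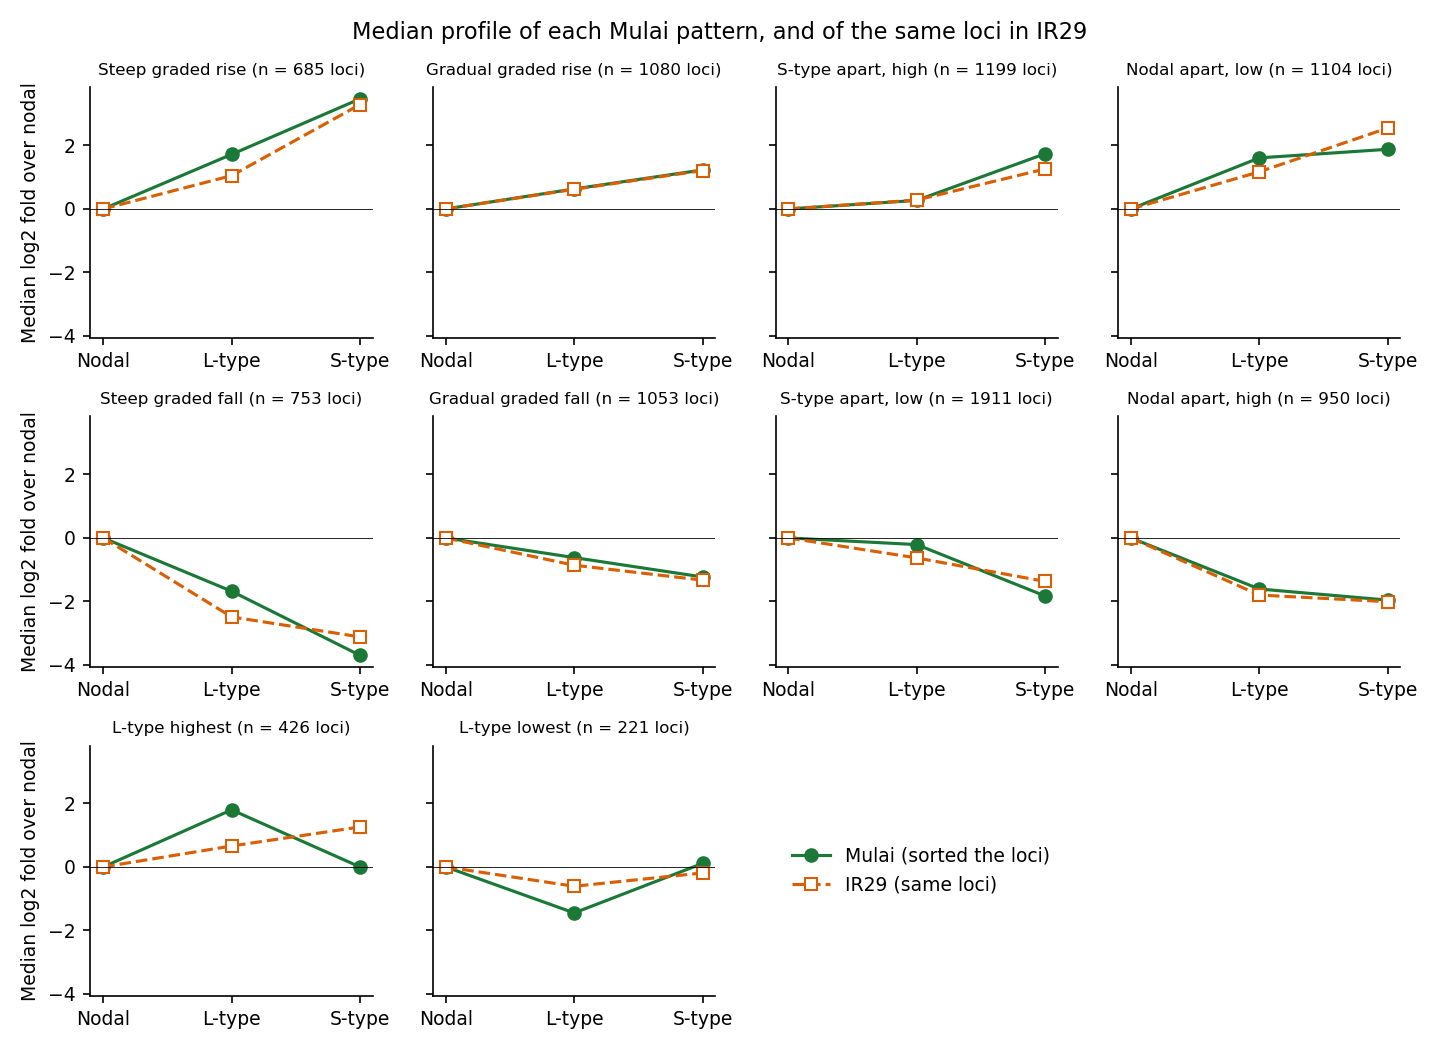
Median log2 fold over nodal roots (y axis) is shown by root type (x axis) for the loci of each Mulai pattern, in Mulai, whose values sorted the loci, and in the separate IR29 libraries. IR29 runs in the same direction from nodal to S-type roots in the graded and apart patterns. The L-type highest loci go from 1.80 in L-type to 0.00 in S-type roots in Mulai, and from 0.66 to 1.26 in IR29.

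Even loci in Mulai that reached 10 in IR29 were even there in 5227 of 9474 cases (55.2%), where 34.3% of the 18645 loci that reached 10 in IR29 were even. Over all 20371 included loci, with those without reads counted as even, the IR29 share was 35.8%. Of the loci that reached 10 and were even in IR29, 81.9% were even in Mulai. The background for this share is 9474 of 18645, the Mulai even loci among all that reached 10 in IR29. Among all 9944 Mulai even loci, 1162 (11.7%) were at least 2-fold higher in L-type than in nodal roots of IR29, and 1312 (13.2%) lower. The shares over all included loci were larger, at 16.9% and 22.8%. L-type lowest in IR29 were 695 of the even loci (6.99%), against 9.84% of all included loci. Over all included loci, 39.8% differed at least 2-fold between L-type and nodal roots in IR29, against 22.3% in Mulai, and 38.6% against 28.6% between the lateral types. The IR29 libraries held fewer reads, and the part of depth in this difference was not tested.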

How the data were processed

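The submitters' processing notes name the IRGSP-1.0 build, Cuffdiff 2.2.1 and Cufflinks 2.2.1, TopHat2 2.0.11 with Bowtie, and Trimmomatic 0.32. Their options, the annotation and how strand and shared reads were handled were not given in the sources used here. The authors deposited a signal per locus, fragment counts scaled by 1 factor per library, and a modelled variance (another quantity in squared units, per the file headers). All values above 0 (100%) were whole multiples of 1 step per library within 0.1 of a read, and division gave whole reads. No count test was run, since each root type had 1 library. The 18 dispersion, uncertainty and status columns were not used. Folds were log2(value + 1) differences over loci that reached 10 in 1 Mulai library, called at 2-fold. Named loci had the largest smaller defining fold in their pattern and a value of at least 100, with 2 per direction and comparison because the identifiers carry no names. Counting intervals of ratios and shares are exact 95% intervals, from the binomial distribution of the reads. Thinning used 1 seeded draw, TMM edgeR 4.0.16 in R 4.3.3, and the rest Python 3.11.15 with scipy 1.17.1. The sorting was tested on simulated data with counting error only. Planted loci had a mean of at least 100 and folds well above 2-fold. The test thus does not cover changes near the 2-fold limit or changed loci with few reads. The members, patterns and limits were chosen with earlier results of these data known.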

Additional observations from a re-analysis of the deposited data

Results flagged for a closer look

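Opposite directions in the cultivars, each from 1 library per root type, marked the following 3 values, and the differences were not tested. For XLOC_008635 the log2 fold of S-type over L-type roots was -2.78 in Mulai and 2.95 in IR29, a difference of 5.73. For XLOC_006603 it was 2.44 in Mulai and -2.21 in IR29, a difference of -4.65, and the IR29 S-type value rested on 2 reads. For the 426 loci highest in L-type roots of Mulai, the median was -1.80 in Mulai and 0.55 in IR29, a difference of 2.35. These loci were chosen by their Mulai values.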

How the results depend on the processing

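Counts of loci were compared within 1.5 times and shares within their exact binomial interval. The settings by modelled SD, and both other scalings of the L-type position, were added after the data were seen. With a minimum of 50 in place of 10, calls numbered 2808 for L-type over nodal and 3599 for S-type over L-type roots, with 1978 loci with S-type roots apart, 1317 with nodal roots apart and 292 with an L-type extreme. Without a minimum, nodal roots were apart in 3205 and L-type roots extreme in 1221 loci, and a pseudocount of 5 left 425 extremes, down from 647. A 4-fold limit gave 1395, 1512 and 3578 calls for L-type over nodal, S-type over L-type and S-type over nodal roots, and 1791 graded, 929 S-type apart, 849 nodal apart, 104 L-type extreme and 16241 even loci, as a stricter limit must give fewer calls. At 4-fold, 15.9% of graded falling and 9.09% of L-type highest loci had the same pattern in IR29. Requiring 1 modelled SD as well gave 1969, 2301 and 5203 calls, and 1439 S-type apart, 1198 nodal apart and 157 L-type extreme loci. The share of loci with L-type roots nearer to nodal, for S-type higher and lower loci, was 46.7% and 54.3% with loci chosen by IR29, 49.5% and 64% with TMM and 43.9% and 66.4% when scaled by total reads, and 63.9% for the lower loci at a minimum of 50. With TMM, graded rising loci took 5.18% of the nodal and 19.13% of the S-type reads and graded falling loci 4.70% of the S-type reads. Apart from the values by construction, the cause was not tested. All 8 named loci kept their pattern with TMM and with a pseudocount of 5. The other 61 main values of the results above stayed within these limits, thinning and the counting interval included. Of the further values, for single directions, lone pairs and named loci, 26 moved and 80 did not. These limits compare totals, and not which loci are counted. They are also wide: scaled by total reads, loci with S-type roots apart went from 3110 to 3264. Their high loci went from 1199 to 802 and their low loci from 1911 to 2462, all within the limit. With 1 modelled SD required, 2553 loci were graded, while 1090 of the 3571 graded before (30.5%) were still sorted as graded. No paired analysis was possible because each group had 1 library and no test was made. Leaving out a replicate was not possible for the same reason.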

Other observations

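Loci with consecutive identifier numbers were compared, a choice made after the data were seen. Whether the numbers follow genome position is not given in the sources used here. Of 12023 pairs of included loci with consecutive numbers, the first was L-type highest in 228, and in 18 of these the next was L-type highest too (7.89%, where 1.92% of all next loci were). For L-type lowest loci it was 2 of 125 (1.6%, against 0.99%). For the patterns with S-type roots above nodal roots it was 27% against 20.3%, and for those with S-type roots below nodal roots 28% against 22.9%. The part of reads shared between neighbouring loci in these shares was not tested.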
